A study of Mus musculus with 8 samples.

Results

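Immediate early genes are switched on within minutes of a growth factor, cytokine, antigen or mechanical or thermal stress, from factors already present in the cell and without new protein synthesis. Their transcripts are short-lived, so a level reports recent signalling. They are also known to rise while tissue is taken apart with enzymes, so a single-cell level joins what a cell type expressed in the tissue with what it added on the way to lysis. Here the 10 genes Fos, Fosb, Jun, Junb, Jund, Egr1, Atf3, Ier2, Nr4a1 and Zfp36 were followed, chosen by gene symbol from the 31053 genes of the deposited gene table, and all 10 were found. Fos and Fosb pair with Jun, Junb and Jund to form the transcription factor AP-1. Egr1 is a zinc finger transcription factor that responds to growth factor signalling through MAP kinases, and Atf3 is a transcription factor of the stress response. Ier2 encodes a small nuclear protein. Nr4a1 (Nur77) is an orphan nuclear receptor whose transcription follows antigen receptor signals in lymphocytes. Zfp36 (tristetraprolin) binds AU-rich elements in messenger RNAs of cytokines and of other immediate early genes and speeds their decay.

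Distal colonic mucosa was taken from 8 mice, each 8 weeks old, and gave 1 library per mouse, all run on the same day. In the 4 KO-labelled mice (mice 2, 3, 6 and 7) a floxed Sprouty2 gene (Spry2) was combined with VillinCre, whose promoter drives expression in the intestinal epithelium. The 4 WT-labelled mice (mice 1, 4, 5 and 8) were littermates that carried the floxed gene and no Cre. After the muscle had been stripped by hand, Liberase TM with DNase I broke up the tissue, and red cells and annexin V-positive cells were removed. No undigested sample was analysed, so the levels before digestion were not measured. Sprouty2 is a feedback inhibitor downstream of receptor tyrosine kinases, and the design asks what its epithelial loss changes in each cell type. Spry2 transcripts do not check the deletion here, because the sources used do not say which part is floxed, so mice are called by their labels.

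The immediate early genes vary together in several cell types, as described further on, and the stretches before their starts are shown to let a reader see which short motifs they share. RefSeq promoters on GRCm38.p6 were matched by symbol for 8 of the 10 genes (not for Egr1 and Ier2). Their starts are not always the ends of the annotated gene. Those of Atf3, Fosb and Nr4a1, for example, lie inside the gene, and those of Jund and Junb lie before it. The motif TGACG, the core of a cAMP response element, was searched, like the other motifs below, on both strands in the 250 bases before each start. It stood in 5 of the 8 promoters (Atf3, Fos, Fosb, Junb and Nr4a1), against 17.8% of the 32851 promoters in the table. The longer palindrome TGACGTCA, which contains that motif, was in 0 of 8 (1.55% of all promoters), and the AP-1 motif TGANTCA was in 0 of 8 (6.75%). A CArG box, the motif that serum response factor binds, was in 1 of 8, Zfp36 (1.47%), and TATAAA in 1 of 8, Fos (12.4%). A match is a description of letters and not a bound site. Below are the bases just before the start without any that an annotated exon covers, 5′ to 3′ on the gene's strand, for the AP-1 genes Fos, Fosb and Junb and for Nr4a1, with each TGACG or its reverse complement CGTCA in capitals.
Fos (chr12:85473740-85473889, plus strand): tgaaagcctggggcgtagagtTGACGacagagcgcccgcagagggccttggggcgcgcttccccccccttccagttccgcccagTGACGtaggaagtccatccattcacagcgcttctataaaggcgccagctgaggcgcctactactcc
Fosb (chr7:19310052-19310195, minus strand): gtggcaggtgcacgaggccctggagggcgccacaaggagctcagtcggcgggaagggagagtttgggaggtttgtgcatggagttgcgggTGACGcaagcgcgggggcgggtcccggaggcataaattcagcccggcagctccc
Junb (chr8:84978749-84978898, minus strand): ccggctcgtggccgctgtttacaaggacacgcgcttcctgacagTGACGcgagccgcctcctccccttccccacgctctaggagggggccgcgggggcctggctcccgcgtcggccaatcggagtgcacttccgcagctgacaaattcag
Nr4a1 (chr15:101266696-101266845, plus strand): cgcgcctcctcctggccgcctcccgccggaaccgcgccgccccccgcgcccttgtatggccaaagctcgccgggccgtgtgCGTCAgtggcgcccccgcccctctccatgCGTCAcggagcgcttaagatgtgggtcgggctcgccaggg
Counted back from the start, the motif began at base −129 and −66 in Fos, −60 in Fosb, −106 in Junb, and −69 and −40 in the stretch shown of Nr4a1. The window of Nr4a1 held further matches at −233 and −213. In the GENCODE M21 annotation of the same build, Fos lies on chromosome 12 from 85473890 to 85477273 (plus strand) and Fosb on chromosome 7 from 19302696 to 19310051 (minus strand). Junb lies on chromosome 8 from 84974484 to 84978718 (minus strand) and Nr4a1 on chromosome 15 from 101254269 to 101274795 (plus strand).

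The matrix held 53080 cells with 500 to 113660 UMIs each (unique molecular identifiers, each counting 1 captured transcript), and 17.0 to 37.3 M UMIs per mouse. Leaving out 1316 cells of the authors' doublet subtypes kept 51764. The authors' 11 classes and 23 subtypes were used as deposited, and the classes carried their defining markers. Epcam, for example, stood at 1956 CPM in epithelium and 21.9 CPM in fibroblasts, and Cd3e at 295 CPM in T cells and 1.90 CPM in B cells. Some small classes also held markers of others. Summed plasma cell markers were at 17615 and 4995 CPM in endothelium of mice 6 and 7, against 176 to 840 in mice 3, 4, 5 and 8. In macrophages of mice 1, 4 and 5 they were at 4436 to 5577 CPM. Summed fibroblast markers reached 1152 CPM in endothelium of mouse 6. Their part in the levels of these classes was not tested. No subtype was named for any of the 10558 epithelial cells of KO-labelled mice or for 6727 of the 13229 of WT-labelled mice, so epithelial subtypes are described in WT-labelled mice alone. Of the epithelial cells, 78.8, 79.6, 69.0 and 53.5% in mice 1 to 4 and 37.2, 18.5, 13.6 and 11.1% in mice 5 to 8 held 50% or more mitochondrial UMIs. Cell barcodes found in more than 1 library numbered 356, on 719 cells (1.35%). UMIs of the 10 genes made up 1.05% of all UMIs, and 95.1% of cells held at least 1 of them.

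Levels are CPM of the summed UMIs of a mouse and type (UMIs per 1000000 UMIs), given as mean ± SD over the mice with at least 20 cells of the type. The totals include mitochondrial UMIs, which lowers the CPM of epithelium, where many cells are rich in them. Genes are not ranked against each other, since capture differs between transcripts. The authors' types were drawn from the same transcripts, so differences between types are described by their size and by the number of mice that show them, without a test. The 8 classes with 3 or more such mice were fibroblasts, epithelium, T cells and B cells (8 mice each), macrophages and lymphatics (7 each), endothelium (6) and myofibroblasts (3). Myofibroblasts came from mice 5, 6 and 7, and endothelium from mice 3 to 8.

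Fos was highest in the stroma and vessels and lowest in lymphocytes. It stood at 4999.5 ± 886 CPM in lymphatics, 4927 ± 1051 in fibroblasts, 4249 ± 739 in myofibroblasts and 4206 ± 446 in endothelium. Macrophages had 1801 ± 368, epithelium 1486 ± 646, T cells 837 ± 311 and B cells 654 ± 275 CPM. Fibroblasts ran from 3433 to 6301 CPM with a median of 5084, and the highest epithelial sum was 2397 CPM, so that these classes did not overlap. Within a mouse, fibroblasts exceeded epithelium in 8 of 8 mice, by 1.82 ± 0.68 on the log2 scale. Lymphatics and fibroblasts could not be ordered (lymphatics higher in 4 of 7 mice), nor could myofibroblasts and endothelium, or macrophages and epithelium. Fosb, a related partner of the Jun proteins, measured 2007 ± 323 CPM in fibroblasts, its highest class, and 275 ± 117 in B cells, its lowest. T cells (646 ± 215) and epithelium (661 ± 317) did not differ in Fosb beyond the spread over mice.

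The Jun family genes differed from each other in their distribution. Jun followed the stromal pattern, at 4050.5 ± 428 CPM in fibroblasts, 1616 ± 532 in epithelium, 939 ± 181 in macrophages, 579.9 ± 276 in T cells and 453 ± 186 in B cells. Each of those classes was above the next in every mouse that had both. Jund, the Jun protein gene that is least dependent on stimulation, was the flattest of the 10 in CPM. The ratio was 2.42 between the means of its highest class (fibroblasts, 3946 ± 472) and its lowest (epithelium, 1632 ± 575). With mitochondrially encoded genes left out of the total, Jund ran from 1839 to 3043 CPM in epithelium and from 1164 to 2950 in T cells. The place of epithelium as the lowest class thus depends on the total used. Jund was higher in B cells than in T cells in 8 of 8 mice, at 2139.9 ± 609.8 against 1724 ± 548 CPM. Junb, which in lymphocytes serves helper T cell programmes, was as high in T cells (2984 ± 896) as in fibroblasts (2884 ± 641), with fibroblasts above in 4 of 8 mice. Its lowest class was epithelium at 602 ± 247 CPM, below T cells in 8 of 8 mice by 2.37 ± 0.39 on the log2 scale. Without mitochondrially encoded genes in the total, Junb in epithelium (720 to 1143 CPM) lay within the range of B cells (545 to 1459). It stayed below that of T cells (2351 to 5145).

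Egr1 and Atf3 had the widest spread over classes. Egr1 stood at 4195 ± 522 CPM in fibroblasts, 2870.0 ± 366 in endothelium, 685 ± 257 in epithelium, 127 ± 45.6 in T cells and 124 ± 51.2 in B cells, a ratio of 33.8 between the top and bottom means. The lowest fibroblast sum (3305 CPM) lay above the highest epithelial one (1078 CPM). Atf3 had a ratio between top and bottom of 35.2, with endothelium at 1406 ± 151 and B cells at 39.9 ± 18.1 CPM. Unlike Egr1, Atf3 in epithelium (805 ± 410.5) reached the range of fibroblasts (1235 ± 328), with fibroblasts higher in 7 of 8 mice. Between endothelium, fibroblasts, lymphatics, myofibroblasts, epithelium and macrophages, neighbouring Atf3 levels did not differ beyond their spread. Ier2 was highest in endothelium (1199 ± 515) and fibroblasts (1099 ± 101) and lowest in B cells (232 ± 76.6). Zfp36 was at 1709 ± 909.5 CPM in endothelium, 1150.3 ± 267 in fibroblasts and 986 ± 234 in macrophages, and no neighbours in its order of 8 classes differed beyond their spread. WT-labelled mouse 8 (28 endothelial cells) held the highest endothelial value of both, 2188 CPM of Ier2 and 3441 of Zfp36. The summed epithelial markers in that same endothelial sum were also the highest, at 1659 CPM against 48.2 to 570.3 CPM in mice 3 to 7, and their part in these values was not tested.

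Nr4a1 kept its own order. Myofibroblasts led with 675 ± 4.78 CPM (n = 3), followed by fibroblasts (438 ± 194), macrophages (419 ± 96.1), T cells (414 ± 138) and endothelium (409 ± 134), which did not differ beyond their spread. B cells had 245 ± 134, epithelium 96.4 ± 51.1 and lymphatics 75.7 ± 55.2 CPM. Lymphatics, at the top for Fos, were thus at the bottom for Nr4a1. The 26 lymphatic cells of mouse 3 held 0 of 75637 UMIs of Nr4a1, which allows up to 39.7 CPM by counting error (3 counts). T cells exceeded epithelium for Nr4a1 in 8 of 8 mice, by 2.23 ± 0.82 on the log2 scale, while for Jun, Egr1 and Atf3 epithelium exceeded T cells in 8 of 8.

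**Figure D1:**
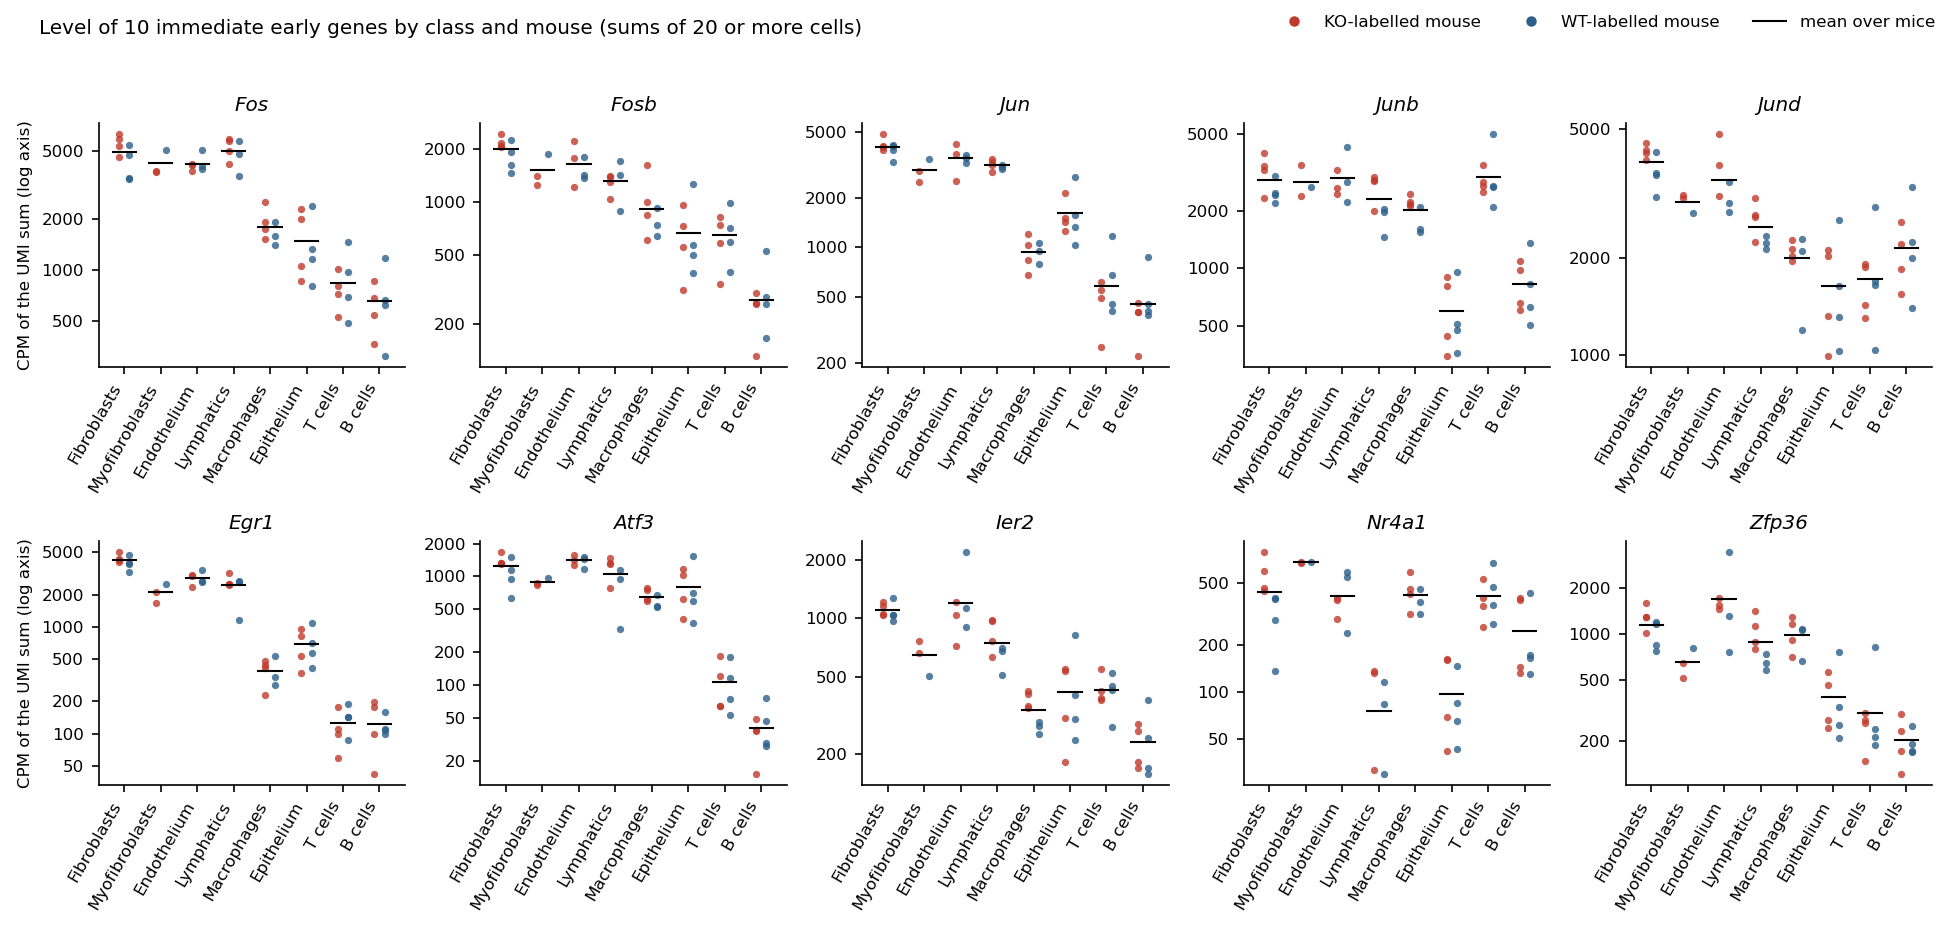
CPM of the summed UMIs (log axes, a different range for each gene) of 10 immediate early genes in 8 classes, 1 point per mouse with 20 or more cells of the class, KO-labelled in red and WT-labelled in blue, with black bars at the mean over mice. Fos, Jun and Egr1 fall from stroma and vessels to lymphocytes, Junb is as high in T cells as in stroma, and Nr4a1 is lowest in lymphatics and epithelium (the lymphatic value of 0 in mouse 3 cannot be drawn on a log axis).

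Shares of cells with at least 1 UMI were compared next. Fos was detected in 93.2% of fibroblasts, 61.4% of epithelial cells, 47.1% of T cells and 43.5% of B cells, as means over mice. Cells of deep classes show more genes, so each cell was also thinned to 1000 UMIs, leaving out shallower cells. The shares then were 88.7 ± 3.36, 50.5 ± 17.0, 33.4 ± 7.37 and 28.4 ± 10.1% (mean ± SD). Thinned shares of Egr1 were 88.5 ± 3.40% in fibroblasts (unthinned 94.4%) and 9.58 ± 3.08% in B cells (17.1%). Thinned shares of Nr4a1 were 28.9 ± 10.7% in fibroblasts (51.9%), 25.4 ± 6.08% in T cells (36.2%) and 5.66 ± 3.20% in epithelium (14.6%). Jund was detected in 63.3 ± 14.5% of thinned epithelial cells (unthinned 74.8%) and 92.9 ± 2.03% of thinned fibroblasts (97.5%). No class here is known to lack these genes, so a share given by free RNA could not be read off. A fibroblast held UMIs of a median of 9 of the 10 genes and all 10 at once in 35.7 ± 13.1% of cells. T and B cells held a median of 4, and all 10 in 0.877 ± 0.51 and 0.366 ± 0.359%. The median depth of a mouse's fibroblasts was 2444.5 to 4709 UMIs, that of its T cells 1097 to 2910 and that of its B cells 1517 to 2302.

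Among the lymphocytes, group 2 innate lymphoid cells (ILC2), tissue-resident producers of type 2 cytokines, had the highest mean of the 10 lymphocyte subtypes with 3 or more mice for every gene but Ier2, which was highest in ILC1-NK cells (594 ± 106 CPM). Fosb measured 1841, 2206, 2410.2 and 2039 CPM in WT-labelled mice 1, 4, 5 and 8 and 1234, 2232, 2195 and 2651 in KO-labelled mice 2, 3, 6 and 7, a mean of 2101 ± 424 CPM. The lowest of these values was above the highest activated T cell value of 382 CPM, and activated T cells averaged 223 ± 105 CPM. Nr4a1 in ILC2 was 1175 ± 262 CPM, with a lowest, median and highest value of 879, 1061 and 1595. It stood at 722 ± 241 in ILC1-NK cells, 512 ± 192 in intraepithelial lymphocytes (IELs, 6 mice), 246 ± 107 in regulatory T cells (7 mice), 192 ± 45.4 in activated and 94.9 ± 42.1 in memory T cells (7 mice). ILC2 exceeded activated T cells for Nr4a1 in 8 of 8 mice by 2.62 ± 0.44 on the log2 scale, and ILC1-NK cells in 7 of 8 mice by 0.73 ± 0.54. Fos was at 1907 ± 551 CPM in ILC2, 491 ± 174 in activated and 319.9 ± 167 in memory T cells. Junb measured 4693 ± 1230.2 CPM in ILC2, 4632 ± 1637 in IELs and 4484 ± 854 in ILC1-NK cells, with ILC2 above ILC1-NK cells in 4 of 8 mice. Memory T cells were the lowest T cell subtype for Fos, Fosb, Jun, Junb, Jund, Atf3, Nr4a1 and Zfp36. The ILC2 sums held 20 to 178 cells per mouse.

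In the B cell class the CPM of the immediate early genes differed in opposite directions between mature B cells and plasma cells, the antibody-secreting end stage. Nr4a1 was at 454 ± 151 CPM in mature B cells and 19.9 ± 9.44 in plasma cells, higher in mature cells in 8 of 8 mice by 4.59 ± 0.41 on the log2 scale. The 8 plasma cell values ran from 8.66 to 33.3 CPM, and those of mature B cells from 212 to 651. Junb (1546 against 195 CPM, 2.93 ± 0.52 log2) and Ier2 (402 against 70.7, 2.55 ± 0.63 log2) were also higher in mature cells in 8 of 8 mice. In CPM, so were Egr1, Atf3 and Zfp36, by 1.24, 1.25 and 1.24 log2. In WT-labelled mouse 1, 114 plasma cells held 1617497 UMIs and 1660 mature cells 3232000. Zfp36 was detected in 66.7, 44.0, 69.6 and 63.0% of plasma cells of WT-labelled mice 1, 4, 5 and 8. Mature cells had 29.9, 29.9, 38.6 and 45.8%. After thinning as above, the shares were 13.9, 9.15, 11.1 and 19.7% in plasma and 18.9, 19.3, 22.1 and 33.1% in mature cells. Unthinned shares of Egr1 and Atf3 were also higher in plasma cells of these mice. Those of Junb and Ier2 were higher in plasma cells of mice 1 and 5 and lower in those of mice 4 and 8. For Ier2 they were 50.9 against 30.1% in mouse 1 and 35.2 against 52.0% in mouse 4. Thinned shares of Junb were 14.6 to 19.1% in plasma and 41.9 to 79.7% in mature cells of these mice. Those of Ier2 were 5.59 to 12.2% and 19.1 to 44.4%. The CPM of Fos went the other way, at 417 ± 176 in mature and 965 ± 287 in plasma cells, with plasma cells higher in 8 of 8 mice. Jun (306 against 644 CPM) and Fosb (204 against 366) were also higher in plasma cells in 8 of 8 mice, and Jund in 6 of 8. B progenitors (5 mice) were the lowest of the 19 subtypes in CPM for Fos (129 ± 21.9), Fosb, Jun, Jund, Atf3, Ier2 and Zfp36. The 124 B progenitors of WT-labelled mouse 1 held 821912 UMIs, so they too were deeper than its mature B cells. Plasma cells made up 2.66 to 45.8% of the B cell class per mouse, highest in mouse 8, so that class levels of Nr4a1 and Fos also carry this share.

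**Figure D2:**
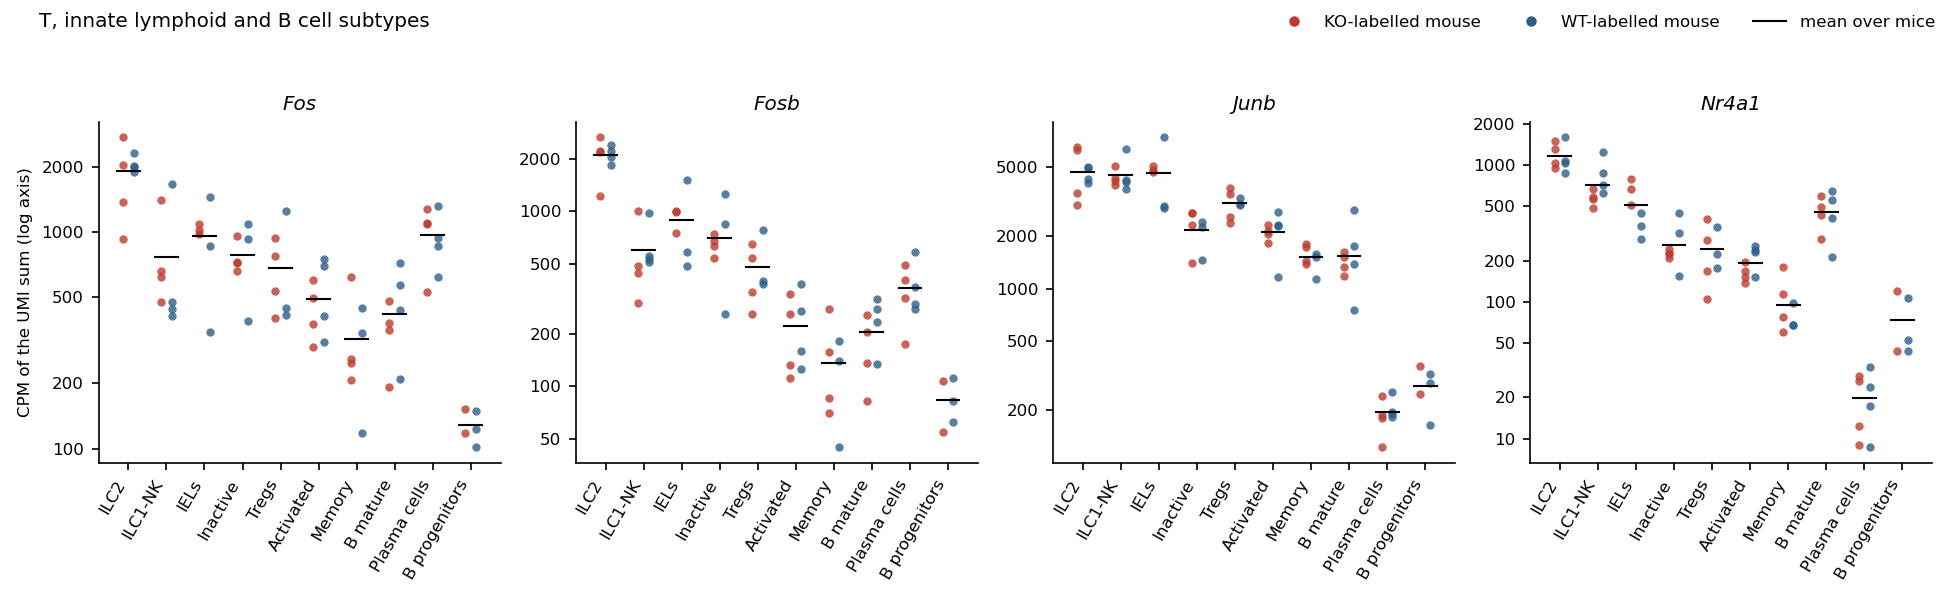
CPM of the summed UMIs (log axes) of Fos, Fosb, Junb and Nr4a1 in 7 T and innate lymphoid and 3 B cell subtypes, 1 point per mouse with 20 or more cells, KO-labelled in red and WT-labelled in blue, with black bars at the mean over mice. ILC2 lie highest for Fos, Fosb and Nr4a1, and Nr4a1 and Junb are lower in plasma cells than in mature B cells while Fos and Fosb are higher in plasma cells.

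Among stromal subtypes, mesenchymal stem cells as the authors named them (MSCs, 3 mice) had the highest mean of all 19 subtypes for Fos (6484 ± 576), Fosb, Atf3, Ier2 and Zfp36. That mean covers 31, 20 and 52 cells of mice 2, 5 and 7, and most other means cover more mice. In WT-labelled mouse 5, MSCs were below CD90-positive fibroblasts for Fosb (1781 against 2066 CPM) and Atf3 (1142 against 1304). For Ier2 they were below the CD90-positive Igfbp3 subtype there (1016 against 1118). Zfp36 stood in MSCs at 2541 ± 429 CPM, above CD90-positive fibroblasts in 3 of 3 mice by 0.80 ± 0.25 on the log2 scale. CD90-positive fibroblasts exceeded the CD90-positive Igfbp3 subtype for Nr4a1 in 7 of 7 mice, by 0.83 ± 0.35, and for Egr1 in 7 of 7, by 0.32 ± 0.12. Jun and Fos were higher in the Igfbp3 subtype in 7 of 7 mice, by 0.31 and 0.12.

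In the epithelium of the WT-labelled mice, Nr4a1 and Ier2 were lower in enterocytes than in secretory progenitors and deep crypt secretory cells. Enterocytes, the absorptive cells, had 15.3, 17.9, 23.7 and 22.4 CPM of Nr4a1 in mice 1, 4, 5 and 8. Secretory progenitors had 208, 143, 304 and 303, and deep crypt secretory cells (DCS), which support the crypt base, 217, 290.0, 175 and 94.3 CPM. No enterocyte value reached either range. Ier2 was at 249 ± 102 CPM in enterocytes, 879.7 ± 87.7 in deep crypt secretory cells and 773 ± 286 in secretory progenitors (n = 4 each). Jun ran the other way, at 2447 ± 1086 in enterocytes and 1087 ± 199.9 in deep crypt secretory cells, and was higher in enterocytes in 4 of 4 mice. Enterocytes also had more Jun and Jund than stem-progenitor cells in 4 of 4 mice, and less Fosb, Junb, Egr1, Atf3, Ier2 and Nr4a1 in 4 of 4. Goblet cells, the mucus producers, had 20.9, 28.3 and 97.2 CPM of Nr4a1 in mice 4, 5 and 8, the first 2 of these near the enterocyte values. Their Ier2 was at 250.4, 362 and 1233 CPM and their Fos at 923, 1501 and 3541 CPM, each highest in mouse 8. Tuft cells, the chemosensory cells, had enough cells in mice 5 and 8 alone, with 21.7 and 79.7 CPM of Nr4a1, 255 and 531 of Ier2 and 114 and 539 of Fos.

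**Figure D3:**
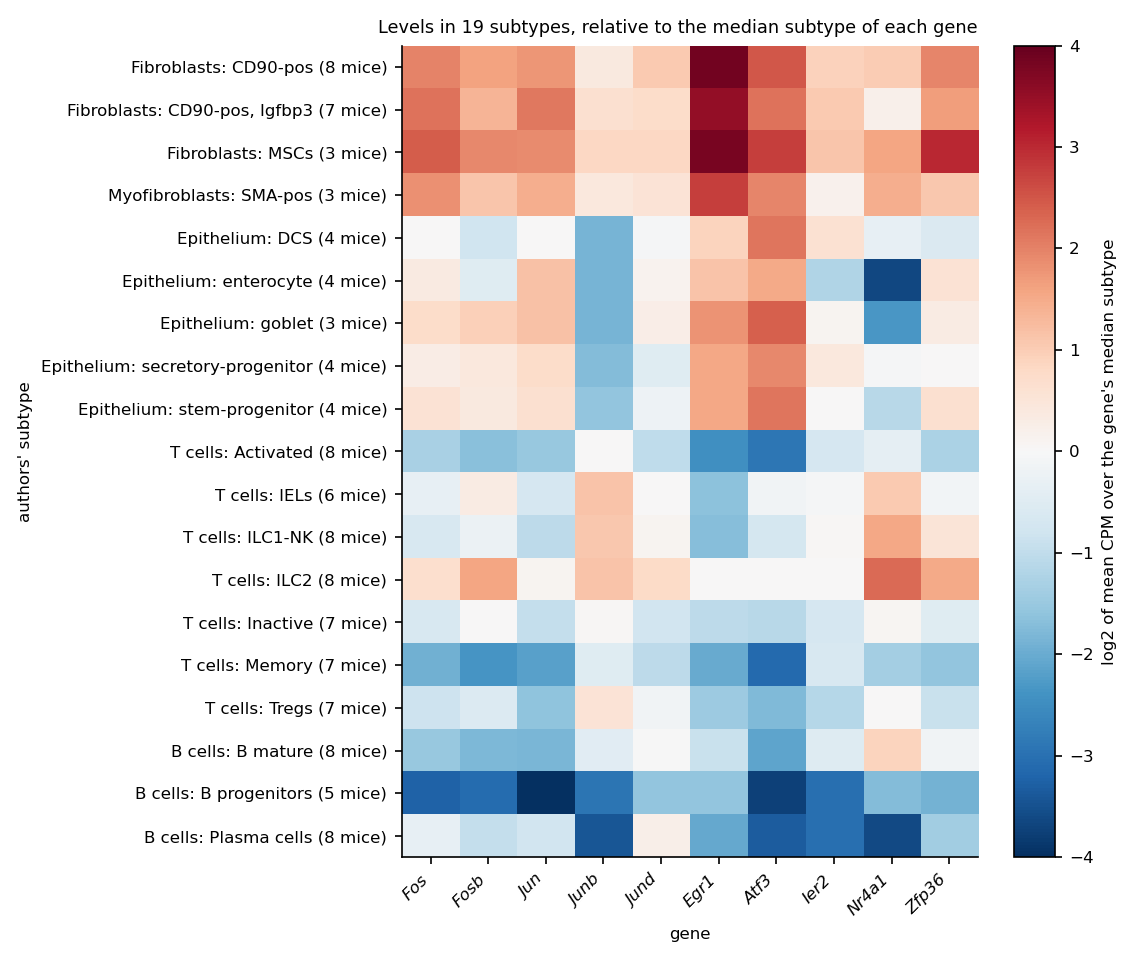
Mean CPM over mice in the 19 subtypes with 3 or more mice of 20 or more cells, as the log2 ratio to the median subtype of each gene (red above, blue below, rows in brackets with the number of mice). Fos, Jun, Egr1 and Atf3 are high in fibroblasts, Nr4a1 is high in ILC2 and low in enterocytes and plasma cells, and Junb is low in epithelium and plasma cells.

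The 10 genes did not all vary alike. Over the 55 sums of a class and a mouse, Pearson's r of log2(CPM + 10) was 0.96 for Jun and Egr1, 0.94 for Fos and Jun and 0.93 for Fos and Fosb. Nr4a1 had −0.06 with Jun, −0.01 with Egr1 and 0.06 with Fos, and its highest value with any other of the 10 was 0.54, with Junb. Sums of a mouse share its library and depth, so these values are descriptions. Among 6734 genes with a mean of at least 20 CPM, the gene most like Fos was Cebpd, a transcription factor of acute responses (0.95). Most like Fosb outside the 10 was Dusp1, a MAP kinase phosphatase (0.89), and most like Atf3 was Klf4, a zinc finger factor (0.93). For Jun outside the 10 it was Rhob, a small GTPase (0.93), for Junb Gpx4 (0.87), for Jund Mrfap1 (0.86) and for Egr1 Fkbp9 (0.96). For Ier2 it was S100a13 (0.89), for Zfp36 Ier3 (0.90) and for Nr4a1 Arid5a (0.83), followed by its own family member Nr4a3 (0.77).

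Pairs of genes were also compared over single cells within a class and mouse, in cells with at least 2000 UMIs of mice with at least 100 such cells. Spearman's rho of the genes' shares averaged 0.61 ± 0.07 (SD over 8 mice) for Junb and Egr1 and 0.59 ± 0.05 for Fos and Fosb in fibroblasts, and 0.62 ± 0.07 for Fos and Jun in epithelium. In T cells the highest pair was Junb and Nr4a1 at 0.50 ± 0.09. In B cells (7 mice) Fos and Fosb had 0.39 ± 0.06 and Junb and Nr4a1 0.38 ± 0.06. Jun and Nr4a1 were the lowest pair in fibroblasts (0.08 ± 0.10) and in B cells (−0.03 ± 0.06). With other genes Nr4a1 was not apart as it was over the sums. Egr1 and Nr4a1 had 0.41 ± 0.04 in fibroblasts and 0.32 ± 0.08 in epithelium. In T cells Nr4a1 had 0.47 ± 0.07 with Fosb, 0.31 ± 0.05 with Fos and 0.24 ± 0.09 with Jun. Cells of 1 mouse share a library, and mature B cells and plasma cells are both in the B cell class.

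Mice of the same label differed widely from each other. In epithelium, Fos measured 802, 859.9, 1053 and 1157 CPM in mice 1 to 4 and 1325, 2282, 2010.1 and 2397 CPM in mice 5 to 8, without overlap. For 8 of the 10 genes mice 5 to 8 lay above mice 1 to 4 without overlap, with a median ratio of the means of 2.04. The same was so for 53.9% of the 11723 genes tested in epithelium, whose median ratio was 1.55, so this separation is shared with much of the transcriptome. This division of the mice follows the mitochondrial share given above and was made after seeing the data, so no test is given. Mitochondrial UMIs fill part of the total: among epithelial cells under 50% mitochondrial UMIs, 2 of the 10 genes were higher without overlap (median ratio 1.45), against 19.2% of all genes (median ratio 1.13). With mitochondrially encoded genes left out of the total, 2 of 10 were (median ratio 1.36), against 12.8% of all genes (median ratio 1.04). In fibroblasts 0 of 10 were without overlap in either direction, with a median ratio of 0.968, against 16.4% of all 11023 genes (median ratio 1.00). Per non-mitochondrial UMI, epithelial cells with 50% or more mitochondrial UMIs held more Jun than the other epithelial cells in 8 of 8 mice (0.39 ± 0.44 log2). They held less Nr4a1 in 8 of 8 mice (−0.93 ± 0.30 log2). Fos was lower in them in 7 of 8 mice (−0.27 ± 0.38), and Jund was higher in 6 of 8 (0.12 ± 0.14).

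The mice did not keep 1 order over the classes. KO-labelled mouse 6 was above the mean of the 8 mice for 10 of 10 genes in epithelium and 10 of 10 in fibroblasts, but for 0 of 10 in B cells and 1 of 10 in T cells. Its median deviation on the scale of log2(CPM + 10) was 0.66 in epithelium, 0.22 in fibroblasts, −0.57 in T cells and −0.69 in B cells. Within subtypes it was also below the mean for 10 of 10 genes in mature B cells and in plasma cells, whereas in ILC2 it was above for 7 of 10 (subtypes on the log2 CPM scale). Activated and memory cells, the T cell subtypes with low values, made up 28.8 and 39.9% of its T cells, and their part in its T cell levels was not tested. WT-labelled mouse 1 was above the mean for 0 of 10 genes in epithelium, T cells and B cells. WT-labelled mouse 8 was above it for 10 of 10 in T cells and for 9 of 10 in epithelium, but for 2 of 10 in fibroblasts.

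Heat shock genes, chaperones that are also known to rise during digestion, were highest in mice 3 and 4 in B cells, T cells and fibroblasts. The 12 heat shock genes summed to 8458 CPM in B cells of KO-labelled mouse 3 and 15139 CPM in those of WT-labelled mouse 4. The other 6 mice had 3899.7, 4560.1, 2823, 3977, 3136 and 3289 CPM in mice 1, 2, 5, 6, 7 and 8. In T cells the sums were 10356 and 14379 CPM in mice 3 and 4 and 4320.1 to 7752 in the others, and in fibroblasts 7962 and 9796 against 4753 to 6036. In fibroblasts of mice 3 and 4, the median deviation of the 12 heat shock genes was 0.42 and 0.68, and that of the 10 immediate early genes −0.00 and −0.03. In B cells the 2 lists moved in the same direction in mice 3 and 4, with 0.27 and 0.30 for the immediate early genes. T cells of these mice had 0.47 and 0.99 for the heat shock genes and 0.10 and 0.15 for the immediate early genes. In epithelium both lists were lowest in mice 1 and 2, at −0.95 and −0.88 (heat shock) and −0.65 and −0.72 (immediate early). Epithelium of mice 3 and 4 had 0.10 and 0.57 for the heat shock genes and −0.27 and −0.26 for the immediate early genes. Mouse 3 is KO-labelled and mouse 4 WT-labelled, and the heat shock genes are compared between the labels further on. Mouse 4 also had the highest summed epithelial markers in its B and T cells, 721 and 751 CPM against 113 to 422 and 124 to 499 in the other mice. The part of these markers in the heat shock sums was not tested.

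**Figure D4:**
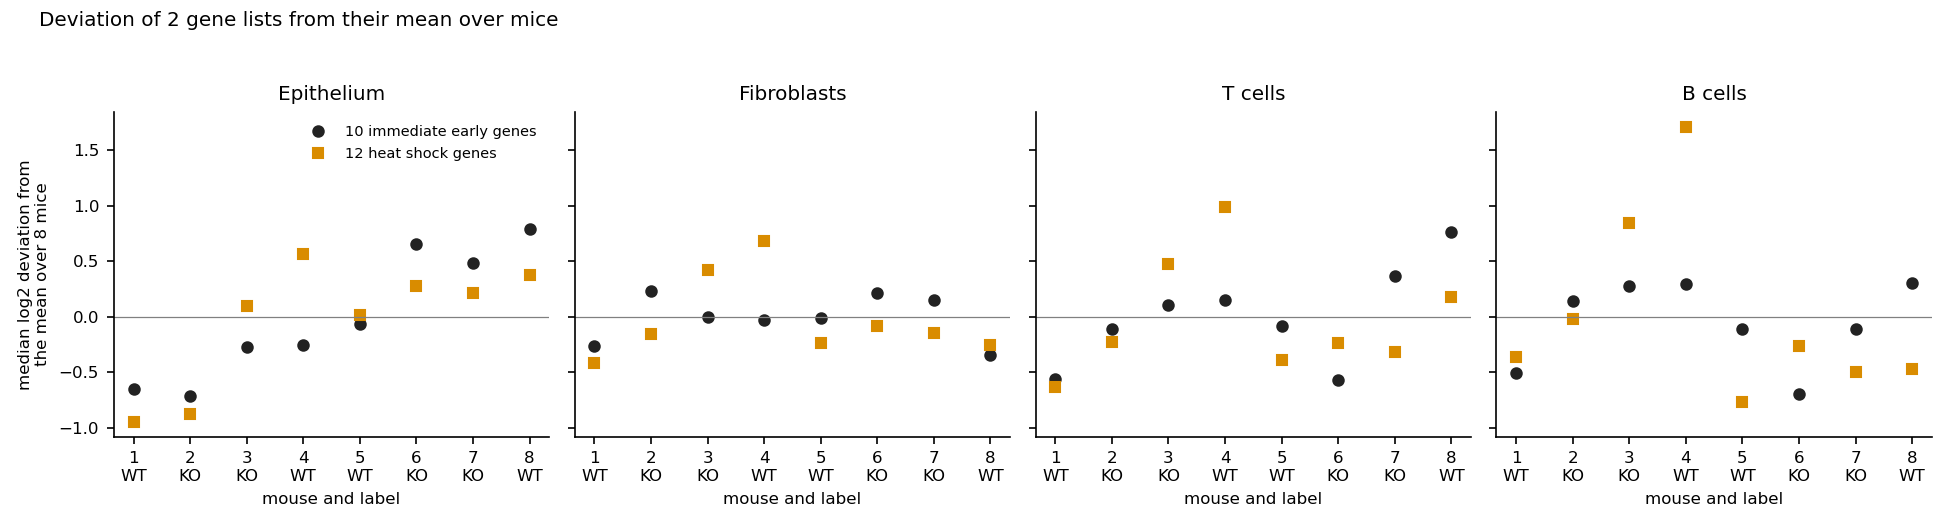
Median deviation, over the 10 immediate early genes (black circles) and over 12 heat shock genes (orange squares), of log2(CPM + 10) in each mouse from the mean of 8 mice, in 4 classes. Heat shock genes peak in mice 3 and 4 of fibroblasts, T cells and B cells, while the immediate early genes are highest in mice 2 and 6 of fibroblasts and in mouse 8 of T cells. In epithelium both lists are lowest in mice 1 and 2.

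MAP kinase signalling, which Sprouty2 restrains, is a known input to several of these genes, and the KO-labelled mice were compared with the WT-labelled mice in each class. In no class did an immediate early gene pass. In epithelium, the class in which the Cre is active, 0 of 10 genes were called by edgeR's quasi-likelihood test at an adjusted p of 0.05, where the share called among all 11723 genes tested was 0%. An unadjusted p under 0.05 was found for 0 of 10, and DESeq2 called 0. Fos measured 859.9, 1053, 2282 and 2010.1 CPM in KO-labelled mice 2, 3, 6 and 7 and 802, 1157, 1325 and 2397 in WT-labelled mice 1, 4, 5 and 8. Both groups held low and high mice, and they overlapped. The log2 fold change, KO-labelled over WT-labelled, was 0.14 ± 0.25 (SE; 95% interval −0.42 to 0.69; edgeR adjusted p = 1.00). Egr1, a known target of MAP kinase signalling, had −0.02 ± 0.20 (95% interval −0.47 to 0.43), with 373, 537, 966 and 829.6 CPM in KO-labelled and 408, 575, 712 and 1078 in WT-labelled mice. The 10 epithelial values ran from −0.15 (Ier2) to 0.30 (Nr4a1), with a median of 0.03 against 0.00 for all genes, and 6 of 10 were higher. The intervals of single genes reached from about −0.76 to 0.95, so changes smaller than that are not shut out. No gene of the 10 was without overlap between the labels in epithelium (0.324% of all genes were).

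In fibroblasts, outside the epithelium, all 10 estimates were higher in the KO-labelled mice and none passed. The share called was 0% of 11023 genes, 0 of 10 members were called by edgeR or by DESeq2, and 1 of 10 had an unadjusted p under 0.05. The median log2 fold change was 0.35, against 0.01 for all genes, with a range from 0.08 (Ier2) to 0.91 (Nr4a1). Since the genes vary together, 10 estimates of 1 sign in the same 8 mice are not 10 observations. Nr4a1 had 785, 441, 466 and 596 CPM in KO-labelled mice 2, 3, 6 and 7 and 289, 396, 398 and 136 in WT-labelled mice 1, 4, 5 and 8. The labels did not overlap, as for 1.81% of all genes, with mouse 2 the highest and mouse 8 the lowest. The difference was 0.91 ± 0.32 log2 (95% interval 0.20 to 1.63; edgeR unadjusted p = 0.0173, adjusted p = 1.00). It was 0.83 within mice 1 to 4, 0.98 within mice 5 to 8 and 0.67 without mouse 8. Within CD90-positive fibroblasts it was 0.69 ± 0.28 and within the Igfbp3 subtype 0.72 ± 0.25 (edgeR adjusted p = 1.00 and 0.999), and the labels overlapped there, as they did for every other member in these subtypes (1.91 and 4.02% of all genes did not). Mouse 8 contributed 21 CD90-positive fibroblasts against 378 to 1008 in the other mice. Fos in fibroblasts measured 5888, 4660.3, 6301 and 5381 CPM in KO-labelled and 3485, 4787, 5483 and 3433 in WT-labelled mice, 0.40 ± 0.19 log2 (adjusted p = 1.00), with the WT-labelled mice 1 and 8 the lowest.

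The difference between the 2 classes was tested directly as the interaction of genotype with class, with the mouse as a block. It was negative for all 10 genes, epithelium minus fibroblasts, with a median of −0.28 and a range from −0.70 (Nr4a1) to −0.15 (Jun). None of the 10 passed in edgeR (adjusted p = 1.00 each; 0 of 10 with an unadjusted p under 0.05; share called 0% of 12995 genes; DESeq2 0 of 10). The estimates were higher in fibroblasts, but a difference between the classes in the effect of the label was not shown.

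The other classes gave no call among the 10 genes either. In lymphatics 9 of 10 were higher (median 0.29; share called 0.146% of 3425 genes; 2 of 10 with an unadjusted p under 0.05 in edgeR). Zfp36 there measured 1427, 793, 893 and 1137 CPM in KO-labelled and 649, 738 and 585 in WT-labelled mice 4, 5 and 8. These did not overlap, as for 5.52% of all genes, and the difference was 0.70 ± 0.23 log2 (unadjusted p = 0.00633, edgeR adjusted p = 1.00). Junb was at 0.57 ± 0.21 (unadjusted p = 0.0151, edgeR adjusted p = 1.00) and overlapped. In macrophages 8 of 10 were higher (median 0.13; share called 0.111% of 5407 genes). Junb and Ier2 did not overlap between the labels there, against 5.55% of all genes, with differences of 0.25 ± 0.18 and 0.37 ± 0.19 log2. The macrophage sums of WT-labelled mice 1, 4 and 5 held 5433, 4436 and 5577 CPM of summed plasma cell markers. Those of the KO-labelled mice held 153 to 224 CPM. Plasma cells had low Junb and Ier2 in CPM, as given above, and the part of these markers in the 2 differences was not tested. Endothelium had 3 of 10 higher (median −0.09), T cells 2 of 10 (−0.15) and B cells 2 of 10 (−0.16). No member was without overlap in endothelium, T cells or B cells, against 9.59, 1.26 and 0.728% of all genes. The share called was 0% in these 3 classes, and no member had an unadjusted p under 0.05 in macrophages, endothelium, T cells or B cells. DESeq2 called 0 of 10 in each of the 7 classes.

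**Figure D5:**
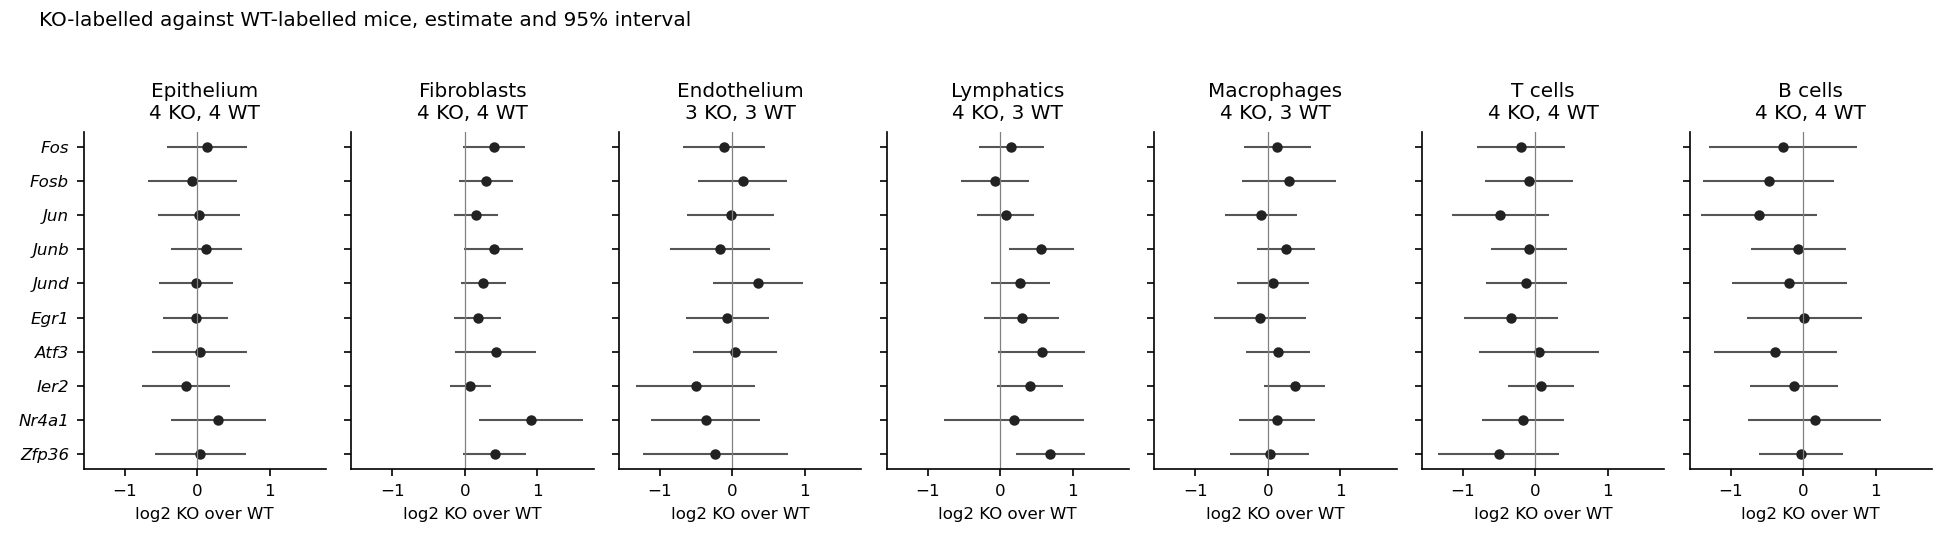
Log2 fold change, KO-labelled over WT-labelled mice, of the 10 immediate early genes in 7 classes, with points for edgeR estimates and lines for 95% intervals (not adjusted for the number of genes), and the number of mice above each panel. Estimates centre near 0 in epithelium, lie to the right of 0 for all 10 genes in fibroblasts, and none passed an adjusted p of 0.05.

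At the level of subtypes, 11 could be compared, none of them epithelial, and again 0 of the tested members passed in edgeR in any. The filter on low counts left out Atf3 in activated and regulatory T cells and Egr1 in IELs, and the other 8 subtypes had all 10 tested. The share called was 0% in 10 subtypes and 0.0228% of 4379 genes in activated T cells. Unadjusted p-values under 0.05 were found for 13 of the 107 gene and subtype pairs, and DESeq2 called 0 members. The share of all genes with an unadjusted p under 0.05 is not given, here or for the classes. Such counts are therefore not read as an excess among the members. Of the 13, 2 were the fibroblast values of Nr4a1 given above. In activated T cells Egr1 (−1.04 ± 0.34 log2), Nr4a1 (−0.49 ± 0.19) and Zfp36 (−0.49 ± 0.21) were all lower in KO-labelled mice. ILC1-NK cells had lower Nr4a1 (−0.61 ± 0.22) and Zfp36 (−1.16 ± 0.52), and inactive T cells lower Egr1 (−1.05 ± 0.41). IELs had higher Nr4a1 (0.82 ± 0.27) and lower Jun (−1.04 ± 0.40), and the labels did not overlap for Nr4a1 (10.1% of all genes). ILC2 had lower Egr1 (−0.82 ± 0.36) and higher Atf3 (1.15 ± 0.42), the latter with 235, 219, 332 and 495 CPM in KO-labelled and 27.5, 215, 210.5 and 107 in WT-labelled mice. The labels did not overlap for Atf3 in ILC2 (3.28% of all genes) or in memory T cells (4.37%), where it was lower (−1.40 ± 0.44). Each of the 13 had an edgeR adjusted p of 0.96 or more with the filter on low counts, and Atf3 in ILC2 passed without it (adjusted p = 0.0231). No member was without overlap in mature B cells (1.53% of all genes), plasma cells (1.72%), activated T cells (2.35%), ILC1-NK cells (1.85%), inactive T cells (3.46%) or regulatory T cells (4.47%). Mature B cells had 0 of 10 genes higher (median −0.24) and plasma cells 1 of 10 (−0.13).

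Related genes were counted in the same fits. Of 30 other immediate early genes, such as Egr2, Fosl2, Klf4, Dusp1 and Nr4a3, 0 passed in either direction in any class. In fibroblasts 25 of 30 had higher estimates in KO-labelled mice (median 0.31) and in epithelium 24 of 29 (0.13). In T cells 14 of 27 did (0.01) and in B cells 12 of 27 (−0.02). Of the 12 heat shock genes 0 passed in any class. In fibroblasts 3 of 12 had higher estimates (median −0.06), in epithelium 3 of 12 (−0.13) and in B cells 0 of 12 (−0.40). Mouse 4, the mouse with the highest heat shock sums, is among the WT-labelled mice.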

How the data were processed

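Single-cell 3′ libraries of 8 mice were analysed from the authors' deposited matrix of raw counts (UMIs). Cell Ranger 3.0.2 and mm10 are named in the submitters' processing notes. How cells were clustered and annotated is not given in the sources used here. A check of cell order used the deposited size factors, a ratio the authors gave for each cell: all 53080 fitted the matrix totals (tolerance 1e-06) when cells were ordered by mouse, then barcode. The deposited UMAP score was used for no result.

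UMIs were summed per mouse and authors' type, doublets left out, with at least 20 cells. Types with 3 or more mice per label were tested with edgeR 4.0.16 (R 4.3.3; TMM, filterByExpr and the quasi-likelihood test), adjusted by Benjamini-Hochberg over all genes, threshold 0.05. The tests were run on simulated data as a check of their working, and their power for small changes is not given. DESeq2 1.42.0, other filters, totals and cell sets, and leaving out each mouse were alternatives. Shares after thinning to 1000 UMIs are exact expectations. Tables were made in Python 3.11.15 with pandas 2.3.3. Named genes were the 10 members and, for likeness, the 3 genes of highest Pearson r. Members and lists were chosen with earlier results of these data known. Each mouse is 1 library, taken as 1 animal per the labels. Intervals and floors cover counting error or the spread between these mice only.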

Additional observations from a re-analysis of the deposited data

Results flagged for a closer look

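In 6 of 100 groups of 4 mice (a gene, a class and a label), 1 mouse stood far from the other 3 by Dixon's criterion at 95%, which chance alone gives for about 1 in 20 groups. WT-labelled mouse 8 had 876 CPM of Jun in B cells, against 391 to 456 CPM in mice 1, 4 and 5; plasma cells, which held more Jun than mature B cells, were 45.8% of its B cell class, and the part of that share was not tested. WT-labelled mouse 4 had 427 CPM of Nr4a1 in B cells, against 131 to 172. Within mature B cells WT-labelled mice 1, 4, 5 and 8 had 212, 558, 409 and 651 CPM of Nr4a1, with mouse 8 above mouse 4. WT-labelled mouse 8 had 824 CPM of Zfp36 in T cells, against 189 to 240. KO-labelled mouse 6 had 1672 CPM of Atf3 in fibroblasts, against 1294 to 1336. KO-labelled mouse 2 had 3236 CPM of Egr1 in lymphatics, against 2446 to 2533, and KO-labelled mouse 3 had 1983 CPM of Junb in lymphatics, against 2855 to 3005. The lymphatic sums of mice 2 and 3 held 24 and 26 cells.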

How the results depend on the processing

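No paired analysis was possible because the labels number the mice 1 to 8 and do not give their litters. The 1050 values of a member under an alternative in a class and the 130 of the interaction stayed on the same side of the threshold as their main value. Of 1438 in subtypes, 1 did not: Atf3 in ILC2 passed without the filter on low counts (adjusted p = 0.0231), which made 1 member called there. Signs changed in 113, 6 and 146 of these uncalled values. Counts of all genes called moved more. Without the filter they were 45 in endothelium, 22 in lymphatics, 37 in macrophages, 14 in T cells and 1 in the interaction, and 2 in mature B cells, 11 in plasma cells, 28 in CD90-positive fibroblasts, 50 in the Igfbp3 subtype, 30 in activated T cells, 5 in IELs, 8 in ILC1-NK cells, 33 in ILC2, 3 in inactive, 20 in memory and 13 in regulatory T cells. DESeq2 called 2 genes in lymphatics, 2 in activated and 1 in regulatory T cells. With a term for mice 1 to 4 against 5 to 8, 8 were called in lymphatics and 3 in activated T cells. Within mice 5 to 8, an alternative chosen after seeing the data, 5 were called in B cells, 9 in endothelium, 4 in epithelium and 11 in lymphatics, and within mice 1 to 4, 2 in macrophages. Leaving out 1 mouse gave 0 to 7 in endothelium, 0 to 8 in lymphatics, 3 to 7 in macrophages, 0 to 4 in plasma cells, 0 to 1 in CD90-positive fibroblasts, 0 to 5 in the Igfbp3 subtype, 0 to 6 in activated T cells, 0 to 1 in ILC2, 0 to 2 in memory and 0 to 2 in regulatory T cells. The main counts were 5 in lymphatics, 6 in macrophages, 1 in activated T cells and 0 elsewhere; causes were not tested. Mean levels of a member in a type moved by more than 1 SD in 23 cases without mitochondrially encoded genes and in 11 as a mean over cells, and shares of cells moved in 60 cases on thinning, which lowers them by construction. Few cells limit endothelium, lymphatics, macrophages and ILC2.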
